A study of Mus musculus with 4 samples.

Results

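The 37 genes described here build the DNA replication machinery and run S phase: the Mcm2 to Mcm7 helicase and its loading and licensing factors, the replicative polymerases with their sliding clamp and clamp loader, the enzymes that supply deoxynucleotides, the cyclin E and E2F1 genes of the G1/S transition, and factors that copy chromatin and DNA methylation. A gene belonged to the group when a probe carried its name in the array files or its current symbol through the probe's RefSeq accession. All 37 were found, among 27670 genes on the array. They were followed in spleen and liver of male C57BL/6J mice, aged 7 weeks at the start of feeding, after 4 weeks on 1 of 2 purified diets. The nucleoprotein diet contained 1.2% of a nucleoprotein product and 0.5% nucleic acids, and the control diet was the same basic diet with 0.03% nucleic acids, per the study's design text (the housing notes name a chow). Mice of both groups were injected once with lipopolysaccharide at 10 mg/kg, a bacterial cell wall component that provokes systemic inflammation, and the organs were taken 6 h later. Mice without lipopolysaccharide were not analysed here.

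RNA was pooled within each diet group before labelling, and each of the 4 arrays held both diets of 1 organ. On array 1 of an organ the nucleoprotein pool was labelled with Cy5, and on array 2 with Cy3. Whether the pooled samples numbered 1 and 2 came from different mice is not stated, so they were counted as 1 pool per diet and organ measured in both dye orientations. Every SD below is that of the 2 arrays, which covers array error and gene-specific dye bias and possibly nothing of the spread between mice. With 1 pool per diet no test between diets was possible, and all values are descriptions of these pools.

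Before S phase, the origin recognition complex, CDC6 and CDT1 load the MCM helicase on origins, and geminin holds CDT1 back from loading it again. CDC45 and the GINS complex then switch the helicase on, primase and polymerase alpha start each strand, and polymerases delta and epsilon extend it on the PCNA ring that replication factor C closes around the DNA. Many of these genes are transcribed late in G1 under E2F factors, so their RNA is high in dividing cells. In the adult mouse the spleen holds dividing lymphocytes and red cell precursors, whereas most hepatocytes are at rest.

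The values below rest on 60-base probes, and 3 genes are shown: Pcna, whose ratio turned with the dye orientation, Dnmt1, with the fourth lowest mean ratio in spleen, and Tyms, whose probes overlap. The Pcna probe, at chr2:131990537-131990674 on the minus strand (mouse build mm7, positions as deposited), was printed repeatedly on each array. The Dnmt1 probe lay at chr9:20784085-20784453, also on the minus strand. The 2 neighbouring Tyms probes, at chr5:29093977-29094036 and chr5:29093997-29094890, share a run of 23 bases, which is in capitals. The bases of probe 1 before that run also stand before it in probe 2, apart from the last 1. The 2 probes thus read nearly the same target.
Pcna probe: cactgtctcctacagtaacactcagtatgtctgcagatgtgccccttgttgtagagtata
Dnmt1 probe: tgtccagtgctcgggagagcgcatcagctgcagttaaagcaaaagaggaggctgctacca
Tyms probe 1: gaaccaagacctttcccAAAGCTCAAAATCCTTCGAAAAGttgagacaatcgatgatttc
Tyms probe 2: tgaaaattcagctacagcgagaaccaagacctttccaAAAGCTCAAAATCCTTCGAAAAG

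Promoters were examined because these genes are known as E2F targets, and 31 of the 37 had an entry in the RefSeq promoter table (GRCm38.p6, 250 bases before each annotated start and 50 after it). The search covered the E2F words TTTCCCGC, TTTCGCGC, TTTGCCGC and TTTGGCGC on both strands, and overlapping matches were each counted. Of the 31 genes, 13 (41.9%) had at least 1 match, against 2.61% of all 27025 genes in that table. The E2F letters were present in Cdc6, Cdt1, Dnmt1, Lig1, Mcm3, Mcm5, Mcm6, Mcm7, Orc1, Pola1, Pold1, Rfc3 and Uhrf1. The CCAAT word, also on both strands, occurred in 17 of the 31 (54.8%), against 41.1% of all genes. The cell cycle homology word TTTGAA occurred in 4 (12.9%), against 20.2% of all genes. The member promoters were richer in G and C, with a median of 58% against 52.7% over all promoters. Of the 6 genes with the lowest spleen means, Ccne1 and Cdc45 had 0 matches and are not printed. The promoters of the other 4 follow, in transcription direction with E2F matches in capitals. Where a gene had several annotated starts, the promoter with matches is printed, and the other entries (1 for Mcm7, 2 for Dnmt1 and 2 for Lig1) had 0 matches. They are Mcm7 (chr5:138171834-138172133, minus strand) and Dnmt1 (chr9:20952574-20952873, minus strand) with 2 matches each, Lig1 (chr7:13278576-13278875, plus strand) with 1, and Rrm2 (chr12:24708004-24708303, plus strand) with 0.
Mcm7 promoter: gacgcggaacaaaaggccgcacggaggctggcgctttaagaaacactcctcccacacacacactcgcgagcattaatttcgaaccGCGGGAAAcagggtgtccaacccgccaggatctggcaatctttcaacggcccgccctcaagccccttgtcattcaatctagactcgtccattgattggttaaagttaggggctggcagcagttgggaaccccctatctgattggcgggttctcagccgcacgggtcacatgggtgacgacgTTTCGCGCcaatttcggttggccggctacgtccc
Dnmt1 promoter: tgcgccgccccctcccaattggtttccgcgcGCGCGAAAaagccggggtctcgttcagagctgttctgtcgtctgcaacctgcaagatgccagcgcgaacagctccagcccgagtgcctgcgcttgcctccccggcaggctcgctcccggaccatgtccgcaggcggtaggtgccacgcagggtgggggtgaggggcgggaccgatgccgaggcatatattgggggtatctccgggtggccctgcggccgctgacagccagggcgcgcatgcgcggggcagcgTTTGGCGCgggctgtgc
Lig1 promoter: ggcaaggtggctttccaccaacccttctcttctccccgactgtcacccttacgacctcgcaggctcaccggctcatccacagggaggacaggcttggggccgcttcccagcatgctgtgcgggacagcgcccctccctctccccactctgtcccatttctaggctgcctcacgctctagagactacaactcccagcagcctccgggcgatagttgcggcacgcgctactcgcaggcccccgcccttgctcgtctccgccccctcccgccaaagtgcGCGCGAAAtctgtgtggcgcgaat
Rrm2 promoter: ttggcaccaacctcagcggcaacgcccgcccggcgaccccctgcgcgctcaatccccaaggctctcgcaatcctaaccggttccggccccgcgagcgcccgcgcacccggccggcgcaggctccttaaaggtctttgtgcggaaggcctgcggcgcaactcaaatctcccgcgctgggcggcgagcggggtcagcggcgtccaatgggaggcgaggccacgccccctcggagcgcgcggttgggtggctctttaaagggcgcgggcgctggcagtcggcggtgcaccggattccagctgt

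The arrays held 43379 gene spots each, of which between 189 and 354 were outliers and left out, and no spot was saturated (0 on every array). Ratios are log2 values of nucleoprotein over control after background correction and loess within each array. A gene counted as measurable if the channel of at least 1 diet was well above background on each array of the organ. It counted as called if both arrays passed 1.5-fold, or 0.58 in log2 units, to the same side. In spleen all 37 members were among the 18150 measurable genes, and in liver 33 were among 16406. The liver pools differed by diet in pancreatic acinar transcripts: 23 of 23 measurable acinar markers were called lower with nucleoprotein, and their summed level was 5.6% and 5.2% of that with the control diet on arrays 1 and 2. In spleen that sum was 44.4% and 42.0% of control with 19 of 23 called lower, and the summed hepatocyte markers stood at 241% and 243.6% of control with 10 of 21 called higher. The part of these other cell types in the members' ratios was not tested.

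In spleen, replication genes sat slightly below 0 as a group. On array 1, 31 of the 37 members (83.8%) had a ratio below 0, and on array 2, 27 (73.0%). Both arrays were below 0 for 21 members, while 19.9% of all measurable spleen genes met that condition. Both arrays were above 0 for 0 members, while 20.4% of all genes did so. The member median was -0.09 on array 1 and -0.06 on array 2, against 0.01 and -0.01 over all measurable genes. The shift was small: the median of the member means was -0.07, and no member was called in either direction (0 of 37), where 0.226% of all genes were called lower and 0.215% higher. With a lower bound of 0.32 log2 units the member counts were still 0, against 0.556% of all genes lower and 0.446% higher. Because the RNA came from whole spleens, fewer cells in S phase and less of these RNAs per cell cannot be told apart.

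The count of 21 depends on how the dye is corrected. Where each array was only centred on the median of all its gene spots, in place of loess, 0 members were below 0 on both arrays. The measurable spleen genes, a part of those spots, then had median ratios of 0.53 on array 1 and -0.54 on array 2. Counted against those medians, 12 members were below on array 1, 31 on array 2 and 6 on both. The share of all genes below both medians was not counted, so 6 of 37 cannot be read as an excess. The mean of both orientations was steadier, with 31 of 37 means below 0 after loess and 30 after median centring. A dye shift common to both arrays has opposite signs in the 2 orientations and cancels in that mean. The likeness of these 2 counts is therefore partly given by the design and is no separate check. Over all measurable spleen genes 9118 of 18150 means were below 0. Of the 31 negative means, 16 were larger in size than the SD of the 2 arrays, and of the 6 positive means none was (all 16 such means lay below 0). In liver, 11 of the 33 measurable members had such means, 6 of them below 0. The share of all genes with such means was not counted, so 16 of 37 cannot be read as an excess.

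**Figure D1:**
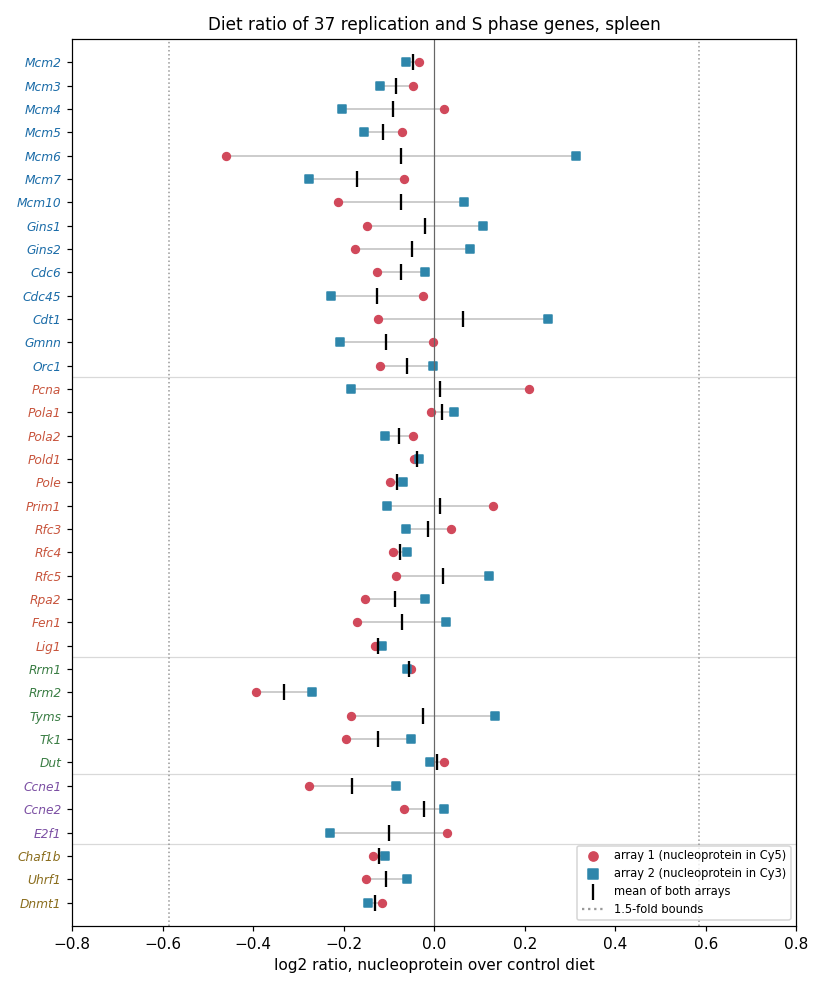
Diet log2 ratio (nucleoprotein over control, x axis) of each of the 37 genes in spleen, with array 1 as circles, array 2 as squares, their mean as a bar and grey lines between the arrays. Genes run in blocks by role from helicase and licensing at the top to chromatin and methylation at the bottom. Of the means, 31 lie left of 0, Rrm2 lies farthest left at -0.33, and no gene passes the dotted 1.5-fold bounds on both arrays.

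Among the 14 helicase and licensing genes in spleen, the median of the mean ratios was -0.07 and 8 were below 0 on both arrays. All 6 subunits of the MCM2 to MCM7 ring, the motor that unwinds DNA at the fork, had means below 0, and 4 of them were below 0 on both arrays. Mcm7 had log2 levels of 12.64 and 12.37 in nucleoprotein spleen on arrays 1 and 2, against 12.71 and 12.64 in control spleen. Its ratios were -0.07 and -0.28, with a mean of -0.17 ± 0.15, and the nucleoprotein level was the lower on each array. Mcm2 had 10.24 and 10.88 in nucleoprotein spleen, against 10.27 and 10.94 in control spleen. The Mcm2 ratios were close together at -0.03 and -0.06, so its mean of -0.05 ± 0.02 was small but larger than its SD. Mcm6 had 13.67 and 13.90 in nucleoprotein spleen, against 14.13 and 13.59 in control spleen. Its ratios pointed in opposite directions, -0.46 and 0.31, and the mean of -0.07 ± 0.55 was far inside that spread. For the remaining subunits the means were -0.08 ± 0.05 for Mcm3, -0.09 ± 0.16 for Mcm4 and -0.11 ± 0.06 for Mcm5.

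The factors that switch the helicase on showed the same small scale. Cdc45, which joins MCM in the active helicase, had log2 levels of 7.37 and 7.19 in nucleoprotein spleen, against 7.39 and 7.41 in control spleen. Its ratios were -0.02 and -0.23 and its mean was -0.13 ± 0.14. Gins1 and Gins2, parts of the GINS complex, had means of -0.02 ± 0.18 and -0.05 ± 0.18. Mcm10, which helps to activate the helicase, had 9.63 and 9.72 in nucleoprotein spleen, against 9.84 and 9.66 in control spleen, with a mean ratio of -0.07 ± 0.20. Its arrays lay on both sides of 0.

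The licensing genes did not move as a block. Cdt1, the MCM loader, had the highest spleen mean of the group, 0.06 ± 0.27. Its levels were 12.84 and 12.95 in nucleoprotein spleen, against 12.96 and 12.70 in control spleen, and its ratios of -0.13 and 0.25 differed in sign. Gmnn, which encodes the CDT1 inhibitor geminin, had 12.03 and 11.93 in nucleoprotein spleen, against 12.03 and 12.14 in control spleen. Its ratios were -0.003 and -0.21, so nearly all of its mean of -0.11 ± 0.15 came from array 2. Cdc6 averaged -0.07 ± 0.08 and Orc1, the large subunit of the origin recognition complex, -0.06 ± 0.08, both below 0 on each array.

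The 12 polymerase, clamp and fork genes had a spleen median of -0.06, with 6 below 0 on both arrays. Pcna, the sliding clamp, had log2 levels of 14.18 and 13.94 in nucleoprotein spleen, against 13.98 and 14.13 in control spleen. Its ratios of 0.21 and -0.18 cancelled to a mean of 0.01 ± 0.28. Its probe had 10 spots on array 1 and 9 on array 2 after outliers, with SDs between spots of 0.05 and 0.04, so the change of sign between dye orientations was larger than the spread between spots. Lig1, the ligase that seals Okazaki fragments, had 10.61 and 10.66 in nucleoprotein spleen, against 10.74 and 10.78 in control spleen. Its ratios of -0.13 and -0.12 gave a mean of -0.12 ± 0.01, and the diets did not overlap. Here and below, such non-overlap rests on 2 arrays, and the share of all genes that met it was not counted.

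Pola1, the catalytic subunit of polymerase alpha, was among the 3 highest spleen means at 0.02 ± 0.03. Its levels were 9.16 and 9.38 in nucleoprotein spleen, against 9.17 and 9.34 in control spleen, with ratios of -0.01 and 0.04. Its partner Pola2 averaged -0.08 ± 0.04 and the primase gene Prim1 0.01 ± 0.17. For Prim1 the levels were 10.71 and 10.46 in nucleoprotein spleen, against 10.58 and 10.57 in control spleen, and the ratios of 0.13 and -0.10 differed in sign. The catalytic subunits of the 2 extending polymerases, Pold1 (delta) and Pole (epsilon), averaged -0.04 ± 0.01 and -0.08 ± 0.02. Both were below 0 on each array.

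Of the clamp loader subunits, Rfc3 averaged -0.01 ± 0.07, Rfc4 -0.08 ± 0.02 and Rfc5 0.02 ± 0.15. Rfc5 had levels of 11.11 and 11.06 in nucleoprotein spleen, against 11.19 and 10.94 in control spleen, with ratios of -0.08 and 0.12. Rpa2, a subunit of the protein that coats single-stranded DNA, averaged -0.09 ± 0.09. Fen1, the nuclease that trims Okazaki fragments, averaged -0.07 ± 0.14. Of these 5 genes, Rfc4 and Rpa2 were below 0 on both arrays and the others were not.

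Rrm2 had the lowest spleen ratio of the 37. It encodes the small, S phase specific subunit of ribonucleotide reductase, the enzyme that turns ribonucleotides into deoxyribonucleotides. Its log2 levels were 8.81 and 8.79 in nucleoprotein spleen, against 9.21 and 9.06 in control spleen, and the diets did not overlap. The ratios of -0.39 and -0.27 gave a mean of -0.33 ± 0.09, which corresponds to a 1.26-fold higher level in control spleen and is short of the 1.5-fold bound. The large subunit Rrm1, which is less tied to S phase, had a mean of -0.06 ± 0.01, with both arrays below 0.

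The other nucleotide supply genes lay nearer to 0, and the median of the 5 was -0.06. Tk1, the thymidine kinase that salvages thymidine, had levels of 8.89 and 8.90 in nucleoprotein spleen, against 9.08 and 8.95 in control spleen. Its ratios were -0.20 and -0.05 and its mean -0.12 ± 0.10. Tyms, the thymidylate synthase gene, had 10.69 and 10.85 in nucleoprotein spleen, against 10.87 and 10.71 in control spleen. The Tyms ratios of -0.18 and 0.13 differed in sign, for a mean of -0.03 ± 0.22. Dut, the dUTPase that keeps uracil out of DNA, averaged 0.01 ± 0.02.

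The G1/S genes Ccne1, Ccne2 and E2f1 had a spleen median of -0.10, and all 3 means were below 0. Ccne1, a cyclin that activates CDK2 at the start of S phase, had log2 levels of 9.96 and 9.89 in nucleoprotein spleen, against 10.24 and 9.98 in control spleen. Its ratios were -0.28 and -0.09, and its mean of -0.18 ± 0.14 was the next lowest after Rrm2. The transcription factor gene E2f1 had 7.46 and 7.31 in nucleoprotein spleen, against 7.43 and 7.54 in control spleen. Its ratios of 0.03 and -0.23 lay on both sides of 0, with a mean of -0.10 ± 0.18. Ccne2, the other cyclin E gene, averaged -0.02 ± 0.06.

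The 3 chromatin genes were the only role group in which every member was below 0 on both spleen arrays, with a median of -0.12. Dnmt1, the methyltransferase that copies CpG methylation onto new strands, had levels of 9.08 and 9.32 in nucleoprotein spleen, against 9.20 and 9.47 in control spleen. Its ratios of -0.12 and -0.15 gave a mean of -0.13 ± 0.02. Uhrf1, which brings DNMT1 to hemimethylated DNA, averaged -0.11 ± 0.06, and Chaf1b, a subunit of the histone chaperone CAF-1, averaged -0.12 ± 0.02. With 3 genes this is a description of those genes and not of the role.

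The E2F letters did not separate the members in spleen. The 13 genes with a match had a median mean ratio of -0.07 and 9 of them were below 0 on both arrays. The 18 genes with an entry and no match had a median of -0.07 and 10 below 0 on both.

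In liver the members lay on both sides of 0. On array 1, 18 of the 33 measurable members (54.5%) were below 0 and on array 2, 14 (42.4%). Both arrays were below 0 for 7 members, against 13.6% of all measurable liver genes, and above 0 for 8, against 20.5% of all genes. The member medians were -0.03 and 0.01, against 0.03 and -0.01 over all genes, and 12 of the 33 means were below 0. The median of the means was 0.01, but its sign depended on the processing. It was -0.006 with the deposited Feature Extraction ratio and -0.07 with median centring counted against all measurable genes. No member was called (0 of 33 in each direction), where 0.317% of all liver genes were called lower and 0.0122% higher. With the bound of 0.32 the count was also 0, against 0.622% lower and 0.0792% higher over all genes.

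**Figure D2:**
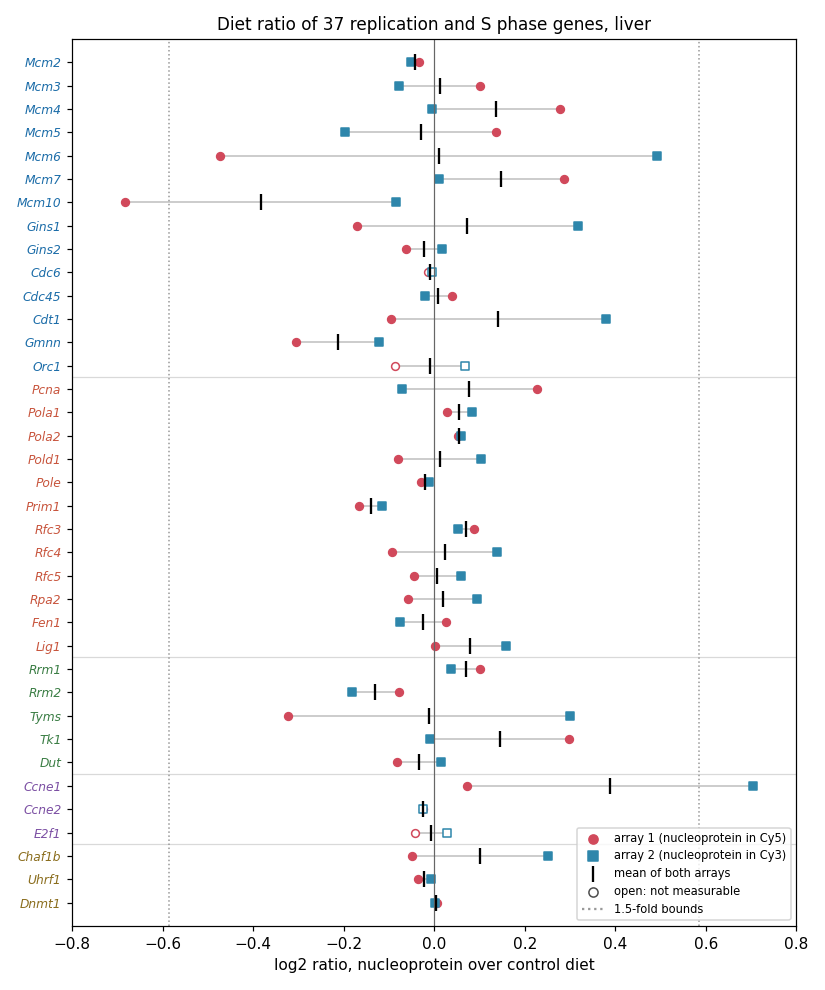
Diet log2 ratio (nucleoprotein over control, x axis) of the same genes in liver, drawn as for spleen, with open symbols for the 4 genes that were not measurable there. The means lie on both sides of 0, 12 of 33 below, and the arrays of Mcm6, Tyms, Mcm10 and Ccne1 lie far apart.

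The liver extremes rested on single arrays. Mcm10 had log2 levels of 11.22 and 11.41 in nucleoprotein liver, against 11.90 and 11.50 in control liver. Its ratio was -0.68 on array 1 and -0.08 on array 2, a mean of -0.38 ± 0.42, and array 1 alone passed the 1.5-fold bound. Ccne1 had 9.73 and 10.03 in nucleoprotein liver, against 9.66 and 9.32 in control liver. Its ratio was 0.07 on array 1 and 0.70 on array 2, a mean of 0.39 ± 0.45, and array 2 alone passed the bound.

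A few liver genes had closer arrays. Gmnn had 8.89 and 8.98 in nucleoprotein liver, against 9.19 and 9.10 in control liver, with ratios of -0.31 and -0.12 and a mean of -0.21 ± 0.13. Prim1 had 7.77 and 7.83 in nucleoprotein liver, against 7.93 and 7.94 in control liver, with ratios of -0.17 and -0.12 and a mean of -0.14 ± 0.04. In both genes the diets did not overlap. With the deposited Feature Extraction ratio the arrays were farther apart, at -0.31 ± 0.35 for Gmnn and -0.25 ± 0.36 for Prim1. Rrm2 had 6.77 and 6.84 in nucleoprotein liver, against 6.85 and 7.02 in control liver, for ratios of -0.08 and -0.18 and a mean of -0.13 ± 0.07. The size of the Rrm2 mean in liver depended on the processing: it was -0.23 with a normexp offset of 10 and -0.85 with the deposited Feature Extraction ratio, and the cause was not tested.

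On the upper side, Mcm7 had 10.48 and 10.38 in nucleoprotein liver, against 10.19 and 10.37 in control liver. Its ratios of 0.29 and 0.01 gave a mean of 0.15 ± 0.20. Tk1 had 9.25 and 8.97 in nucleoprotein liver, against 8.95 and 8.98 in control liver, and its ratios of 0.30 and -0.01 gave a mean of 0.14 ± 0.22. Both means were smaller than the SD of the arrays. These liver means also moved with the dye correction. With median centring, the median of all measurable liver genes was 0.17. The means were then -0.05 for Mcm10, -0.03 for Gmnn, -0.06 for Prim1, 0.62 for Ccne1, 0.42 for Mcm7 and 0.35 for Tk1.

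The remaining helicase and licensing genes in liver lay between -0.04 ± 0.01 for Mcm2 and 0.14 ± 0.34 for Cdt1. Mcm2 had levels of 6.42 and 6.82 in nucleoprotein liver, against 6.46 and 6.87 in control liver. Mcm6 again had arrays of opposite sign, with 9.73 and 10.29 in nucleoprotein liver, against 10.20 and 9.80 in control liver, and ratios of -0.47 and 0.49. Mcm3 averaged 0.01 ± 0.13, Mcm4 0.14 ± 0.20 and Mcm5 -0.03 ± 0.24. Gins1 averaged 0.07 ± 0.35, Gins2 -0.02 ± 0.06 and Cdc45 0.01 ± 0.04. With the deposited Feature Extraction ratio Mcm2 averaged -0.35 ± 0.36, Gins2 -0.16 ± 0.20 and Cdc45 0.42 ± 0.57. The small SDs of these 3 genes thus depended on the processing. Cdc6 and Orc1 were not measurable in liver, and neither diet was well above background there on any array (0 of 2).

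Among the polymerase and fork genes in liver, Pcna had levels of 11.81 and 11.63 with nucleoprotein, against 11.58 and 11.70 with control. The Pcna ratios were 0.23 and -0.07, with the same order of the dye orientations as in spleen, and the mean was 0.08 ± 0.21. Above 0 on both arrays were Pola1 at 0.06 ± 0.04, Pola2 at 0.05 ± 0.005, Rfc3 at 0.07 ± 0.02 and Lig1 at 0.08 ± 0.11. The Pola2 mean was 0.20 with the deposited Feature Extraction ratio, so its small SD does not cover the effect of the processing. The only other gene of this role below 0 on both arrays, after Prim1, was Pole at -0.02 ± 0.01. Pold1 averaged 0.01 ± 0.13, Rfc4 0.02 ± 0.17, Rfc5 0.01 ± 0.07, Rpa2 0.02 ± 0.11 and Fen1 -0.03 ± 0.07.

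Of the nucleotide supply genes in liver, Tyms had levels of 9.29 and 9.73 with nucleoprotein, against 9.61 and 9.43 with control, and ratios of -0.32 and 0.30. Its mean of -0.01 ± 0.44 lay far inside that spread. Rrm1 averaged 0.07 ± 0.04 and Dut -0.03 ± 0.07. The chromatin genes averaged 0.004 ± 0.003 for Dnmt1, -0.02 ± 0.02 for Uhrf1 and 0.10 ± 0.21 for Chaf1b. With the deposited Feature Extraction ratio Dnmt1 averaged -0.04 ± 0.21 and Uhrf1 -0.14 ± 0.08. The G1/S genes Ccne2 and E2f1 were not measurable, since in each diet at most 1 of the 2 liver arrays was well above background. The E2f1 levels in liver were 6.33 and 6.38 with nucleoprotein, against 6.38 and 6.35 with control.

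Set side by side, 5 of the 33 members measurable in both organs were below 0 on all 4 arrays: Gmnn, Mcm2, Pole, Rrm2 and Uhrf1. Of all 15317 genes measurable in both organs, 3.38% met that condition. Mcm2, Pole, Uhrf1 and Rrm2 were dim in liver, with mean log2 levels of 6.62, 6.56, 6.52 and 6.80 with nucleoprotein. Cdc6, which was not measurable there, had 6.14. The liver ratios of Pole were -0.03 and -0.01, and those of Uhrf1 -0.04 and -0.01. A second Uhrf1 probe, not measurable in liver, had -0.10 and 0.28 there. Another 6, Ccne1, Dnmt1, Lig1, Mcm7, Pola2 and Rrm1, were below 0 on both spleen arrays and above 0 on both liver arrays, against 3.9% of all genes. With 21 of 37 members below 0 on both spleen arrays, members had more occasion than other genes to meet either condition. Across the 33 genes the mean ratios of liver and spleen had a Pearson r of -0.03 and a Spearman rho of -0.11. The 2 organs share a slide and the diet groups, and genes are not independent replicates.

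Members whose 2 arrays differed in one organ tended to differ the same way in the other. This difference is called the dye effect here, the part of a probe's Cy5 over Cy3 ratio that does not turn with the diets. Since array 1 and array 2 also hold pooled samples 1 and 2, a difference between those pools common to both organs cannot be told apart from it. Across the 33 members it had a Pearson r of 0.75 and a Spearman rho of 0.61 between liver and spleen, against 0.49 and 0.47 over 15317 genes measurable in both organs. Mcm6 had the most extreme value, -0.48 in liver and -0.39 in spleen, followed in liver by Ccne1 at -0.32, Tyms at -0.31 and Mcm10 at -0.30. Pcna had a positive dye effect in both, 0.15 in liver and 0.20 in spleen. The dye effect was larger in size than the mean diet ratio for 18 of 33 members in liver and 16 of 37 in spleen. Between the 2 arrays of an organ the member ratios ran against each other, with r = -0.20 in liver (n = 33) and r = -0.41 in spleen (n = 37).

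**Figure D3:**
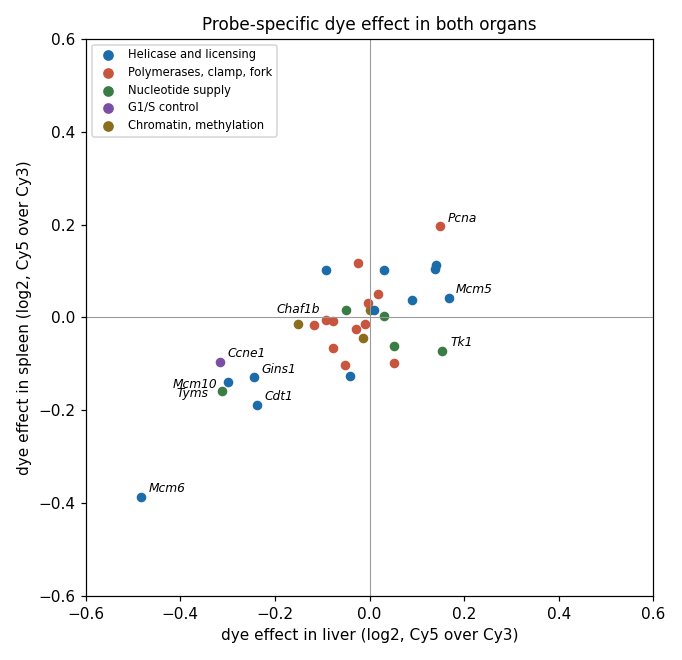
Probe-specific dye effect (log2 of Cy5 over Cy3) of the 33 members measurable in both organs, liver on the x axis and spleen on the y axis, with points coloured by role and genes past 0.15 in either organ named. The points run from Mcm6 at the lower left to Pcna at the upper right.

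The organs themselves differed far more than the diets. Levels of the same probe were compared between liver and spleen in the same dye, and a gene was called when it passed 1.5-fold in both dyes. With the nucleoprotein diet 31 of the 37 members were lower in liver, against 26.7% of all measurable genes, and 1 was higher, against 19.8%. With the control diet 31 were lower, against 28.6% of all genes, and 1 was higher, against 20.7%. The median difference, liver minus spleen, was -1.86 with nucleoprotein and -2.03 with control, against -0.10 and -0.13 over all measurable genes. The organs matched their labels: 21 of 22 hepatocyte markers were higher in liver and 14 of 15 B cell markers were lower in both diets.

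Cdt1 and 3 subunits of the MCM ring, Mcm5, Mcm2 and Mcm6, differed most in both diets. Cdt1 had log2 levels of 8.22 and 8.55 in nucleoprotein liver, against 12.84 and 12.95 in nucleoprotein spleen, a difference of -4.51 and 22.7-fold more in spleen. In control mice Cdt1 had 8.32 and 8.17 in liver, against 12.96 and 12.70 in spleen, a difference of -4.59. Mcm5 differed by -4.09 with nucleoprotein and -4.17 with control. In spleen Mcm2 was 15.3 and 15.4-fold higher, Mcm6 13.7 and 14.5-fold and Mcm3 10.4 and 11.2-fold. Mcm7 and Mcm4 differed less, with 4.22 and 5.26-fold for Mcm7 and 3.64 and 4.27-fold for Mcm4. Gmnn was 8.24-fold higher in spleen with nucleoprotein and 7.65-fold with control.

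The polymerase genes followed. Pold1 was 11.1-fold higher in spleen with nucleoprotein and 11.5-fold with control, Prim1 6.90 and 6.21-fold, Pole 6.52 and 6.81-fold, Rfc4 5.50 and 5.89-fold, Pcna 5.08 and 5.31-fold and Pola1 4.10 and 4.21-fold. The remaining genes of this role that were called ranged from 1.76-fold for Pola2 to 3.95-fold for Fen1 with nucleoprotein. Dut was 8.16 and 7.94-fold higher in spleen, Rrm1 4.24 and 4.63-fold, Rrm2 4.00 and 4.60-fold and Tyms 2.39 and 2.42-fold. Uhrf1 was 12.6 and 13.4-fold higher in spleen and Dnmt1 2.51 and 2.75-fold. The dim liver levels of Uhrf1, Pole and Rrm2 limit the size of their folds. Gins2 was 2.42 and 2.46-fold higher in spleen and Cdc45 1.73 and 1.90-fold. Control liver was well above background on 1 of 2 arrays for Cdc45 and for Pole. E2f1 was 2.04 and 2.18-fold higher in spleen, with 1 of 2 liver arrays well above background in each diet. Cdc6 and Orc1 were not well above background in liver, so their folds are bounds: at least 2.80 and 2.93-fold for Cdc6 and at least 1.98 and 2.12-fold for Orc1.

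Mcm10 ran the other way. It had log2 levels of 11.22 and 11.41 in nucleoprotein liver, against 9.63 and 9.72 in nucleoprotein spleen, and 11.90 and 11.50 in control liver, against 9.84 and 9.66 in control spleen. Liver was thus 3.12-fold higher with nucleoprotein and 3.86-fold with control. Mcm10 has a single probe here, so no other probe could be set beside it. Gins1 was 1.47 and 1.38-fold higher in liver, short of the bound. Chaf1b was 1.33 and 1.55-fold higher in spleen and did not pass the bound in both dyes. Ccne2 was at least 1.33-fold higher in spleen with the control diet, where no liver array was well above background (0 of 2), and with nucleoprotein 1 of 2 liver arrays was. Tk1 differed by 0.22 ± 0.20 with nucleoprotein and -0.05 ± 0.12 with control (liver minus spleen). Ccne1 differed by -0.04 ± 0.26 with nucleoprotein and -0.61 ± 0.06 with control, where spleen was 1.53-fold higher and 1 of the 2 pairs fell short of the bound.

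**Figure D4:**
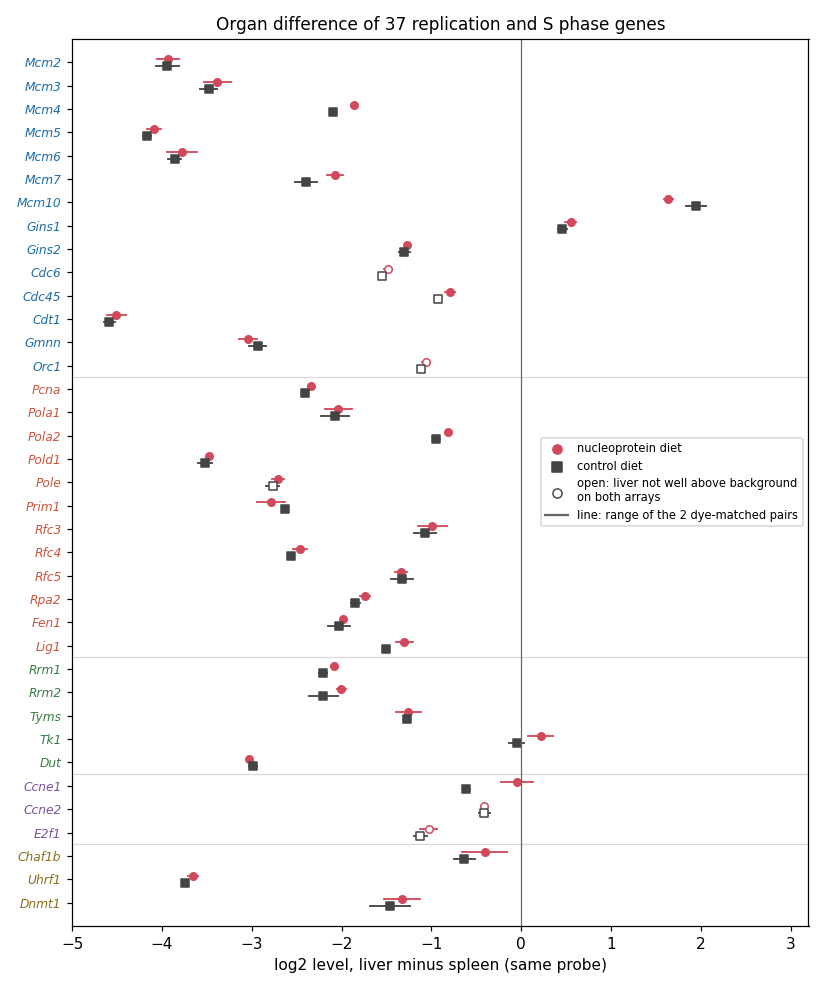
Log2 level in liver minus spleen for the probe of each gene (x axis), with the nucleoprotein diet as red circles, the control diet as dark squares and lines spanning both dye-matched pairs. Most genes lie between -1 and -4.6 in both diets, while Mcm10 lies near 1.6 with nucleoprotein and 2.0 with control.

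Other genes of the same processes were counted for context. Their counts below 0 on both arrays rest on loess and were not repeated with median centring, where the member count in spleen was 0. In spleen, 13 of 40 further replication genes were below 0 on both arrays, 4 of 15 nucleotide supply genes, 5 of 26 G1/S regulators and 8 of 18 S phase chromatin genes. Together that was 30 of 99 (30.3%), against 19.9% of all measurable spleen genes. Above 0 on both were 12 (12.1%), against 20.4% of all genes. The median of the 99 was -0.03, and none was called (0 in each direction). The lowest 3 in spleen were the CAF-1 subunit gene Chaf1a at -0.29 ± 0.05, the histone chaperone gene Asf1b at -0.29 ± 0.17 and the repair gene Brca1 at -0.28 ± 0.40. The highest 3 were the phosphatase gene Cdc25a at 0.17 ± 0.07, the CDK inhibitor gene Cdkn1a at 0.12 ± 0.01 and E2f5 at 0.12 ± 0.14. In liver 5 of 86 (5.8%) were below 0 on both arrays, against 13.6% of all measurable liver genes. Above 0 on both were 20 (23.3%), against 20.5% of all genes, also with 0 called. The lowest 3 in liver were the nucleoside transporter gene Slc29a1 at -0.50 ± 0.15, the dNTPase gene Samhd1 at -0.35 ± 0.19 and Shmt1 of folate metabolism at -0.15 ± 0.03. The highest 3 were E2f3 at 0.38 ± 0.09, Cdk6 at 0.24 ± 0.01 and Ccnd1 at 0.23 ± 0.07.

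Mitosis genes, which act after S phase in the same dividing cells, had mostly negative ratios in spleen. Of 29 measurable, 25 (86.2%) were below 0 on both arrays, against 19.9% of all measurable spleen genes. This count also rests on loess and was not repeated with median centring. Above 0 on both were 0, against 20.4% of all genes. The median was -0.14, and 0 were called. Mki67, the proliferation antigen, had levels of 10.90 and 10.96 in nucleoprotein spleen, against 11.27 and 11.03 in control spleen, with a mean ratio of -0.22 ± 0.21. The summed level of the mitosis genes in nucleoprotein spleen was 91.2% of control on array 1 and 89.5% on array 2. In liver 3 of 18 (16.7%) were below 0 on both arrays, against 13.6% of all measurable liver genes. The liver sums were 98.8% and 97.1% of control.

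Markers of dividing and other spleen cells were read in the same way. For the counts below, which also rest on loess, 19.9% of all measurable spleen genes were below 0 on both arrays. The summed B cell markers in nucleoprotein spleen were 94.7% and 95.9% of control, with 6 of 14 below 0 on both arrays, and Ms4a1 averaged 0.00 ± 0.06. Germinal centre markers summed to 110.5% and 89.1% (3 of 6 below on both), and T and NK cell markers to 94.5% and 101.4% (7 of 16), where Cd3e averaged -0.11 ± 0.08. Erythroid precursor markers summed to 96.7% and 104.8% of control (6 of 15). Plasma cell markers summed to 94.3% and 77.4% (5 of 9) and myeloid markers to 112.8% and 91.2% (2 of 12). The sums of the germinal centre, T and NK, erythroid and myeloid lists lay on different sides of 100% on the 2 arrays, and their part in the members' ratios was not tested. Among the acinar genes that were lower, Cpb1 averaged -1.30 ± 0.11 in spleen and -6.15 ± 0.25 in liver. Alb, the hepatocyte marker, averaged 1.94 ± 0.24 in spleen and 0.08 ± 0.97 in liver.

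The genes called in these marker lists were mostly secreted products of their cell type. In liver the acinar genes called lower included Prss2, Prss3, Try5, Ctrb1, Ctrl, Ctrc, Cela1, Cela2a, Cela3b, Cpa1, Cpb1, Pnlip, Pnliprp1, Pnliprp2, Cel, Clps, Amy2, Reg1, Reg2, Sycn, Zg16 and Rnase1. In spleen the genes just named were also called lower except for Ctrb1, Ctrl, Pnliprp2 and Rnase1, and the hepatocyte genes called higher were Alb, Apoa2, Fga, Fgb, Fgg, Serpina3k, Ahsg, Mup1, Mup3 and Hpx.

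**Figure D5:**
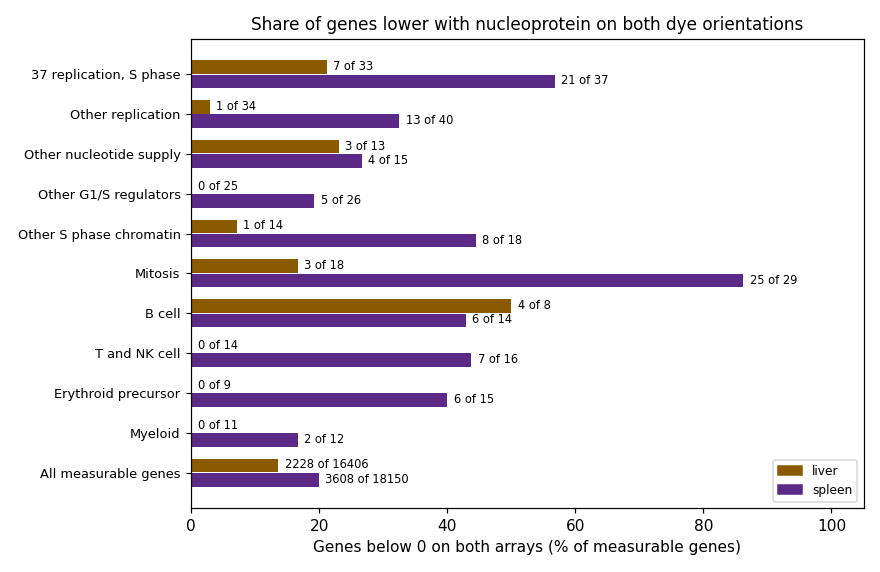
Share of measurable genes whose ratio (nucleoprotein over control) was below 0 on both arrays, in % on the x axis, for the 37 genes, related lists and all genes, with liver in brown and spleen in purple. In spleen the members (21 of 37) and the mitosis list (25 of 29) have longer bars than all genes, and in liver the members (7 of 33) do not stand far from all genes. All counts are those with loess, and with median centring the member count in spleen was 0.

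Probes of the same gene were also set beside each other. The 37 members had 54 probes, and 50 were measurable in spleen. Of these, 41 had a mean below 0, 27 were below 0 on both arrays and 2 were above 0 on both. The 50 include the 37 probes that represent the members and were counted above. These probe counts thus largely repeat the gene counts and are no separate check. The share over all probes was not counted. Among the 12 members with more than 1 measurable probe in spleen, all probes of 8 had a mean below 0 and the probes of 4 lay on both sides. The Tyms probes printed above, which overlap and are not independent readings, averaged -0.03 and -0.09, and a further Tyms probe 0.08. A further Pola2 probe averaged 0.10 and a further Pold1 probe 0.01, against the -0.08 and -0.04 given for these genes. The second E2f1 probe, printed on 10 spots of spleen array 1, had ratios of -0.19 and 0.09, opposite in sign on each array to those of the first E2f1 probe. Probes printed at least 8 times on an array had a median SD between spots of 0.06 to 0.08, beside a median member ratio of -0.07 in spleen.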

How the data were processed

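Per the labels, each of 4 Agilent arrays carried the nucleoprotein and the control pool of 1 organ. Their scans were read with Feature Extraction, version 9.5.3.1 in the submitters' processing notes. The headers give 9.5.1.1 as the version of the grid placement and mm7 as the mouse build of the probe positions. Per the file headers, the deposited files hold for each spot mean and background intensity values, processed intensity values and the log10 ratio of red over green. The authors' deposited value table, treated as a score of unstated scale, matched the linear size of that ratio within 0.02 log2 units for 99.8% to 100.0% of bright spots. In that deposited table the replicate 1 columns carry a minus sign (column medians -0.92, 0.92, -0.96 and 0.96), whose purpose is not given. The scale of that table was thus inferred from the match and is not stated, and the table was used as an alternative only.

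From the scanner intensities, background was corrected with normexp (offset 50) and ratios were normalized by loess within arrays (limma 3.58.1, R 4.3.3). Control spots had no weight, outlier spots were left out, spots of a probe were averaged, and ratios were turned to nucleoprotein over control. Levels are log2 values per channel after Aquantile scaling. Of 41174 probes, 22951 were named by accession and 9768 by symbol or synonym from a RefSeq table (GRCm38.p6, names only), and 8455 kept the file's name. By the file's name 34 members were found, and Cdc45, Gins2 and Orc1 by accession or synonym. A gene was represented by its brightest probe.

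All 37 members were named. Members with values on each array were those with the 6 lowest and 3 highest spleen means, the 3 lowest and 3 highest liver means, and a short set of well-known genes. Other genes were named when called, or as the 3 lowest and 3 highest of the related lists, and some of these are not reported here. The members and lists were chosen with earlier results of these data known. No p-values were computed, and the number of arrays limits the precision. The steps were tested on simulated data, with changes beyond the 1.5-fold bound planted in bright spots only. The simulation held no dye effect particular to a probe and no shift as small as the member medians. It therefore cannot speak to either. Alternatives were offset 10, median centring, the deposited log10 ratio, other filters on dim probes, the mean of all probes, each array alone, a bound of 0.32 log2 units and no scaling between arrays. Chosen after seeing the data were median centring counted against the median of all measurable genes and the authors' table. All arrays lay on 1 slide, so slide was not used as a block. No per-sample column was left unused (0).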

Additional observations from a re-analysis of the deposited data

Results flagged for a closer look

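For 6 members every spleen array lay below 0 and every liver array above 0, with loess. The differences, liver minus spleen of the mean log2 ratios, were 0.57 for Ccne1, 0.32 for Mcm7, 0.20 for Lig1, 0.13 for Dnmt1, 0.13 for Pola2 and 0.13 for Rrm1. The difference itself was not tested for any of them, since each organ had 1 pool per diet. For Ccne1 the liver value rests on array 2, where the ratio was 0.70 against 0.07 on array 1, and a second Ccne1 probe averaged 0.10 in liver and -0.04 in spleen. With median centring 0 members were below 0 on both spleen arrays. The Pola2 direction in spleen depended on the probe: a second probe was above 0 on both arrays (0.13 and 0.08), and the mean of its measurable probes was 0.01. The liver mean of Dnmt1 was -0.04 with the deposited Feature Extraction ratio and -0.07 with median centring counted against all genes, where that of Pola2 was -0.13. For Mcm7 the liver ratio on array 2 was 0.01.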

How the results depend on the processing

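The spleen median of the members stayed below 0 in every setting tried, between -0.09 and -0.06, and between 30 and 32 of the 37 means were below 0 in the settings that use both arrays. The number of members below 0 on both spleen arrays was 0 with median centring and 6 when counted against all genes, against 21 with loess. In liver the median was -0.0058 with the deposited Feature Extraction ratio and 0.137 with median centring. It was -0.0686 when each array was counted against its own median of all measurable genes (1.13 and -0.72). With 1 liver array alone it was between -0.0327 and 0.0149. The liver number below 0 on both arrays was 2 with median centring, 4 counted against all genes, and between 14 and 18 with 1 array alone, where a single array had to be below 0. Single liver arrays called 0 to 1 members higher and 0 to 1 lower, while both arrays together called 0. The median difference of liver minus spleen levels was, for nucleoprotein and control, -2.12 and -2.18 with offset 10, -1.72 and -2.09 with median centring, -2.67 and -2.81 with Feature Extraction's processed signals, -2.00 and -2.09 with the filter on both channels, and -2.54 and -2.64 without scaling between arrays. With 1 array per organ it was between -1.89 and -1.84 for nucleoprotein and between -1.92 and -1.91 for control. Apart from the fewer arrays and the shifted zero point, the cause of these differences was not tested. No paired analysis was possible because the result comes from no test and the 2 arrays of an organ hold both diets in opposite dyes. The slide block was not run, since there was 1 slide. Rrm2, Mcm2, Cdc45 and other dim liver genes had low signal over background, which limits the size of their ratios.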
